A study of Oryza sativa Japonica Group with 4 samples.

Results

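The diterpenoid phytoalexin synthases of rice were followed in the lamina joint, where the leaf blade bends away from its sheath, of wild-type and ila1 plants. The genes were chosen by name: CPS2, CPS4, KSL4, KSL5, KSL6, KSL7, KSL8 and KSL10, taken where a probe set was paired with exactly 1 gene whose symbol or RefSeq synonym is one of these 8. Of the 8 genes, 6 were read by 7 of the 57381 probe sets, and KSL6 and KSL8 had no probe set paired with them. Of the 7 probe sets, 6 passed the filter on low values, 1 for each of the 6 genes. Lamina joints at the tillering stage were compared between wild type (2 arrays) and the mutant ila1 (2 arrays), where the wild type is Zhonghua11, ZH11 for short, and all samples are labelled japonica. ILA1 is known as a kinase of the Raf-like group, and its loss widens the leaf angle. The labels do not describe the ila1 lesion and call the 2 samples of a genotype biological replicates without saying how many plants each holds. Each sample was hybridised to an Affymetrix Rice Genome Array, a 1-colour array that gives 1 linear intensity, here called signal, per probe set.

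Rice makes its diterpenoid phytoalexins, antimicrobial compounds that accumulate after infection or elicitation, from geranylgeranyl diphosphate (GGPP). A copalyl diphosphate synthase (CPS) first cyclises GGPP, and a kaurene synthase-like enzyme (KSL) then turns the product into a diterpene hydrocarbon that cytochromes P450 and dehydrogenases oxidise. CPS2 makes the ent form of copalyl diphosphate, which feeds phytocassanes through KSL7 and oryzalexins A to F through KSL10, and CPS4 makes the syn form, which feeds momilactones through KSL4 and oryzalexin S through KSL8. Gibberellins start from the same GGPP through the separate enzymes CPS1 and KS1.

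Over all rice probe sets the median signal lay between 53.6 and 57.9 on the 4 arrays. The lamina joint regulator LG1, a factor required for the ligule and lamina joint, read 312 and 340 in ZH11 and 318 and 234 in ila1, and BU1, a brassinosteroid-responsive regulator of lamina bending, read 188, 208, 140 and 184 in the same order. ILI1, the third lamina joint marker, had no match. The other markers that could be matched were of green tissue. The small subunit of Rubisco, RBCS, read 8173, 8377, 8860 and 10531 on its brightest probe set. The chlorophyll-binding protein CAB2R read 9498 and 10034 in ZH11, 4562 on ila1 replicate 1 and 9277 on ila1 replicate 2. Its second probe set read 7161, 7288, 1527 and 6704 in the same order, so ila1 replicate 1 stood below the other 3 arrays for this gene on both. No marker of dividing cells was matched. With 4 arrays the precision is limited throughout, and in whole tissue fewer expressing cells and less RNA per cell cannot be told apart.

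All 6 tested synthase genes had a lower mean signal in ila1, by 1.30-fold to 2.08-fold on the scale of log2(signal + 16), but none passed the threshold of a limma adjusted p of 0.05. Over all 34354 tested probe sets 15.2% passed, 10.4% as lower and 4.77% as higher in ila1. At an unadjusted p under 0.05, 2 of the 6 synthases (KSL5 and KSL7) were lower, against 21.6% of all tested probe sets. The median log2 difference of the 6 was -0.76, beside -0.07 for all tested probe sets, of which 58.3% had a difference below 0. For 4 of the 6, CPS2, CPS4, KSL5 and KSL7, both ila1 arrays lay below both ZH11 arrays, which held for 40.6% of all tested probe sets (the reverse for 26.5%), and for KSL4 and KSL10 the genotypes overlapped.

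CPS2, the ent-copalyl diphosphate synthase of phytoalexin synthesis, read 393 on ZH11 replicate 1, 171 on ZH11 replicate 2, 105 on ila1 replicate 1 and 161 on ila1 replicate 2. Its probe set is paired with LOC9266189, on chromosome 2. The genotypes did not overlap, yet ZH11 replicate 2 stood only slightly above ila1 replicate 2 and far below the other ZH11 array. The mean was 282 ± 157 in ZH11 and 133 ± 39.3 in ila1 (SD, n = 2 each), and the log2 difference of -0.92 ± 0.42 (SE) did not pass (limma adjusted p = 0.194). The 95% interval of that difference ran from -1.997 to 0.17 and so holds 0.

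KSL7 makes ent-cassadiene, the precursor of phytocassanes, from the product of CPS2. The gene (LOC4329724, chromosome 2) read 253 and 157 in ZH11 and 77.9 and 138 in ila1. The array order was that of CPS2, with ZH11 replicate 1 highest and ila1 replicate 1 lowest, and the genotypes did not overlap. The mean fell from 205 ± 67.5 to 108 ± 42.2 in signal, a log2 difference of -0.84 ± 0.33 that missed the threshold (limma adjusted p = 0.144; 95% interval -1.69 to -0.00184). The second KSL7 probe set read between 6.11 and 8.63 on the 4 arrays, under the filter on low values, and was not tested. Fewer than 5% of rice probe sets read lower on any array, so this probe set gives no level for the gene.

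KSL10 makes ent-sandaracopimaradiene, the precursor of oryzalexins A to F, and draws on the same CPS2 product. It read 381 and 165 in ZH11 and 111 and 204 in ila1 (LOC4352248, chromosome 12). Here ila1 replicate 2 stood above ZH11 replicate 2, so the genotypes overlapped. The mean was 273 ± 153 against 157 ± 65.7 in signal, a log2 difference of -0.68 ± 0.46 (limma adjusted p = 0.339; 95% interval -1.87 to 0.50).

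KSL5 converts ent-copalyl diphosphate to a pimaradiene in japonica rice, and no phytoalexin is firmly assigned to it. It read 108 and 125 in ZH11 and 87.6 and 83.7 in ila1 (LOC4329728, chromosome 2). Of the 6 genes it was the only one whose arrays lay close together within both genotypes, and its genotypes did not overlap. The mean was 117 ± 12.5 against 85.7 ± 2.75 in signal. The log2 difference was the smallest of the 6, -0.38 ± 0.12, and did not pass (limma adjusted p = 0.106; 95% interval -0.70 to -0.06).

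CPS4, the syn-copalyl diphosphate synthase that starts momilactone synthesis, read 519 and 283 in ZH11 and 124 and 247 in ila1 (LOC4335090, chromosome 4). The genotypes did not overlap, with ZH11 replicate 2 and ila1 replicate 2 as near neighbours. The mean was 401 ± 167 against 186 ± 87.3 in signal, and the log2 difference of -1.06 ± 0.41 was the largest of the 6 without passing (limma adjusted p = 0.149; 95% interval -2.13 to 0.02).

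KSL4 turns the CPS4 product into syn-pimaradiene, the hydrocarbon that becomes momilactone. It read 114 and 54.6 in ZH11 and 31.3 and 71.2 in ila1 (LOC4335094, chromosome 4), so ila1 replicate 2 stood above ZH11 replicate 2. The mean was 84.5 ± 42.3 against 51.2 ± 28.3 in signal, a log2 difference of -0.58 ± 0.41 (limma adjusted p = 0.363; 95% interval -1.65 to 0.49).

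**Figure D1:**
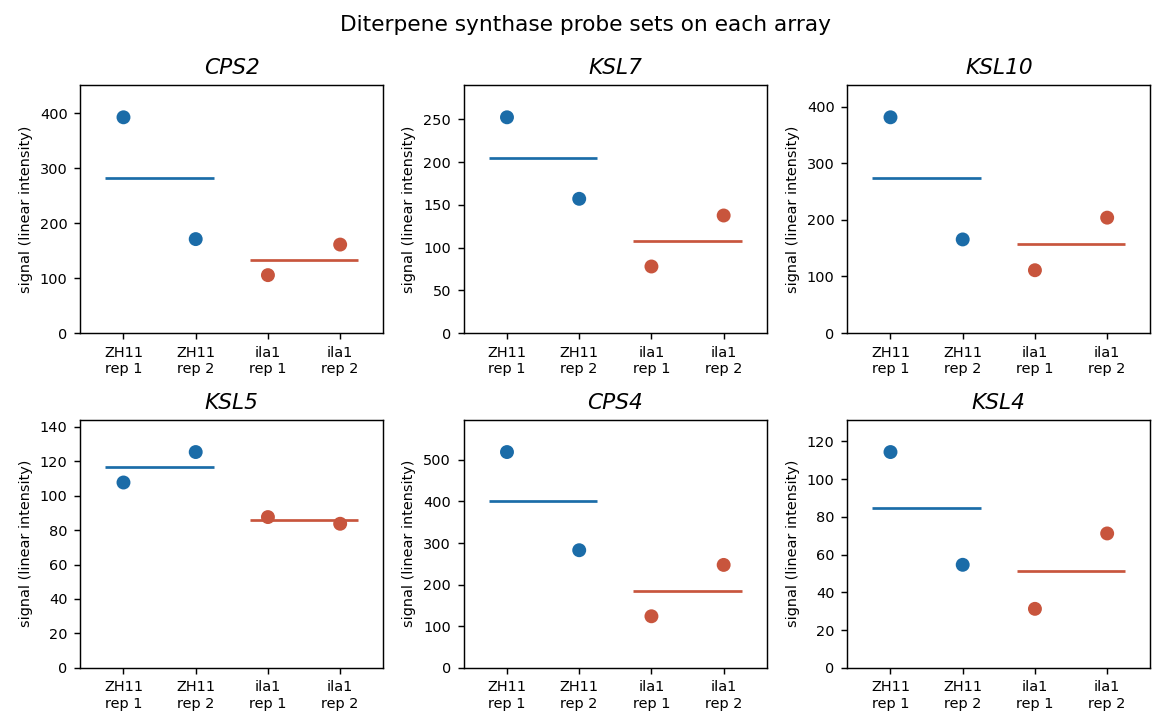
Signal (linear intensity, y axis from 0) of the 6 tested synthase probe sets on each of the 4 arrays (x axis), with the mean of each genotype as a horizontal line; the axes differ between genes, so levels are not comparable between panels. In 5 panels ZH11 replicate 1 is highest and ila1 replicate 1 lowest, with ZH11 replicate 2 and ila1 replicate 2 in between, while KSL5 shows tight pairs at 108 and 125 and at 87.6 and 83.7.

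For the synthases other than KSL5, the arrays of a genotype differed more than for most tested probe sets. ZH11 replicate 1 read 2.30-fold above ZH11 replicate 2 for CPS2 and KSL10, 2.09-fold for KSL4, 1.84-fold for CPS4 and 1.61-fold for KSL7. In log2 terms the ZH11 pair differed by a median of 0.86 over the 6 genes, against 0.10 over all tested probe sets. A difference between the ZH11 arrays as large as that of CPS2 was found in 0.218% of tested probe sets, and one as large as that of KSL7 in 0.859%.

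The ila1 arrays were apart in the opposite order. Replicate 2 read above replicate 1 by 2.28-fold for KSL4, 1.997-fold for CPS4, 1.84-fold for KSL10, 1.77-fold for KSL7 and 1.53-fold for CPS2, and the median absolute log2 difference was 0.75 over the 6 genes against 0.18 over all tested probe sets. The ila1 pair varied more than the ZH11 pair in general, so a difference as large as that of KSL4 was found in 4.38% of tested probe sets and one as large as that of CPS2 in 12.1%. KSL5 was unlike the other 5, with 23.4% of tested probe sets at least as far apart in ZH11 and 82.6% in ila1.

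For 5 of the 6 synthases (all but KSL5) ZH11 replicate 1 was the highest and ila1 replicate 1 the lowest of the 4 arrays, an order that 10.4% of all tested probe sets showed. Taking the smallest gaps among these 5 genes, 0.63 between the ZH11 arrays and 0.54 between the ila1 arrays on the log2 scale, 62 tested probe sets (0.18%) were at least as far apart in the same directions. The 5 synthases are among the 62 by construction, since their own gaps set the limits. The gene CAB2R was also low on ila1 replicate 1, but its ZH11 arrays were close together. The part of green tissue, of array quality or of the plants sampled in these gaps was not tested, since each array is a single sample with no further labels.

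**Figure D2:**
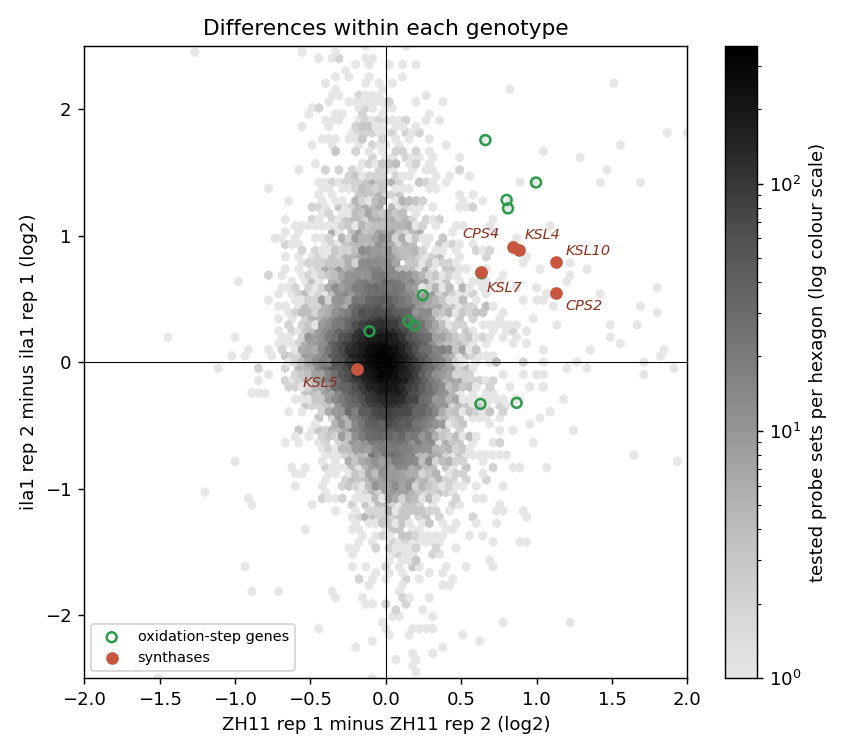
Difference between the 2 ZH11 arrays (x axis, replicate 1 minus replicate 2, log2) against the difference between the 2 ila1 arrays (y axis, replicate 2 minus replicate 1, log2), with all tested probe sets as grey hexagons on a log colour scale (93 lie beyond the axes), the 6 synthases in red and the tested oxidation-step probe sets as green circles. CPS2, CPS4, KSL4, KSL7 and KSL10 sit in the thinly filled upper right, with gaps of at least 0.63 and 0.54, while KSL5 sits in the dense centre; the circle of CYP99A3 lies under the point of KSL7.

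Because of these gaps the size of each genotype difference depended on which arrays entered. Without ZH11 replicate 1 the log2 difference was -0.35 for CPS2, -0.53 for KSL7, -0.12 for KSL10, -0.64 for CPS4 and -0.14 for KSL4. Without ZH11 replicate 2 the same genes read -1.48, -1.16, -1.25, -1.48 and -1.02. Without ila1 replicate 1 they read -0.64, -0.49, -0.29, -0.60 and -0.14, and without ila1 replicate 2 -1.19, -1.20, -1.08, -1.51 and -1.02. KSL5 ranged only from -0.48 (without ZH11 replicate 1) to -0.28 (without ZH11 replicate 2). The sign stayed negative for all 6 genes in all 4 of these fits. Among these 4 fits, the 5 genes other than KSL5 passed the threshold only without ila1 replicate 2, where 24.5% of all tested probe sets passed as lower and the lone ila1 array was assumed to vary like the ZH11 pair. The shares lower were 0.0815% without ZH11 replicate 1, 0.32% without ZH11 replicate 2 and 18.8% without ila1 replicate 1, with 0 synthases in each.

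**Figure D3:**
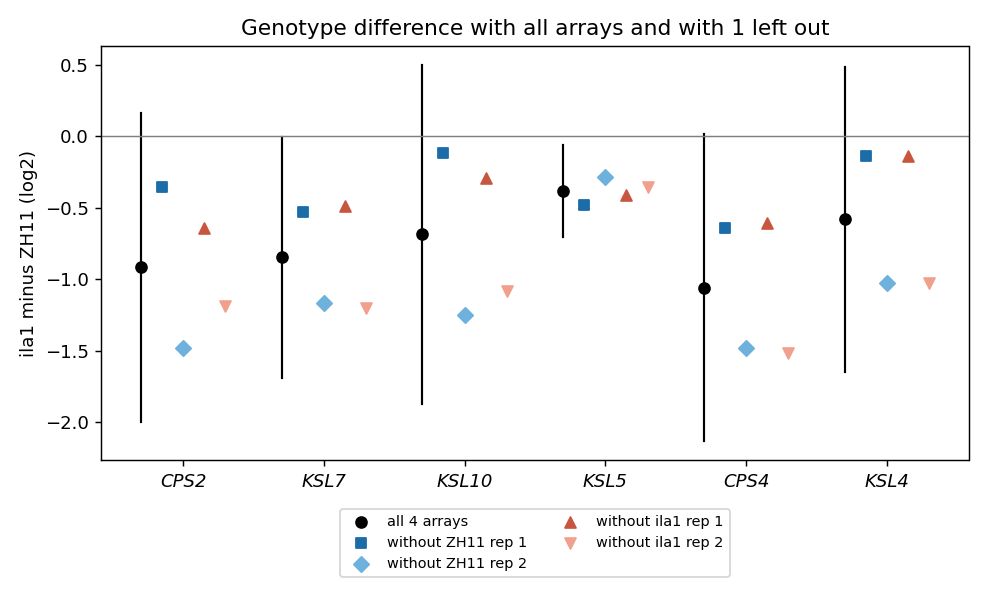
Log2 difference of ila1 minus ZH11 (y axis) for each of the 6 tested synthases (x axis), with all 4 arrays (black circles, bars are 95% intervals from limma) and with each array left out in turn (other symbols, no bars). All points are below 0, and for the 5 genes other than KSL5 they lie nearer 0 without ZH11 replicate 1 or ila1 replicate 1 than without either replicate 2.

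Several of the synthases lie beside the genes for the oxidation steps that follow them. In the RefSeq annotation of assembly ASM3414082v1, used here for names and gene order only, CPS4, CYP99A3, MAS, KSL4 and CYP99A2 lie in that order along chromosome 4 in a run of 9 annotated genes, with other genes between some of them. CYP99A2 and CYP99A3 oxidise syn-pimaradiene and MAS, momilactone A synthase, is a dehydrogenase late in momilactone synthesis. MAS read 967 and 606 in ZH11 and 90.7 and 344 in ila1 (log2 difference -1.996 ± 0.61, limma adjusted p = 0.0929). CYP99A3 read 711 and 452 against 158 and 267 (log2 difference -1.39 ± 0.32, limma adjusted p = 0.0523) and CYP99A2 636 and 311 against 95.7 and 283 (log2 difference -1.34 ± 0.57, limma adjusted p = 0.172). In all 3 the genotypes did not overlap and the array order was that of CPS4, with ZH11 replicate 1 highest and ila1 replicate 1 lowest. Over all tested probe sets 40.6% had both ila1 arrays below both ZH11 arrays, and 10.4% had these arrays as highest and lowest. None of the 3 passed the threshold, and CYP99A3 was the nearest.

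On chromosome 2 a run of 14 annotated genes holds CYP76M5, CYP76M8, LOC4329723, KSL7, CYP71Z6, CYP71Z7, CPS2, KSL5, KSL6 and CYP76M6, with 4 non-coding RNA genes between them. CYP71Z7, which hydroxylates ent-cassadiene on the way to phytocassanes, read 1213 and 690 in ZH11 and 365 and 910 in ila1 and so overlapped between genotypes (log2 difference -0.65 ± 0.50). CYP76M8, another hydroxylase of ent-cassadiene, has a probe set of a type that can also read related transcripts and read 434 and 364 against 213 and 314 (log2 difference -0.59 ± 0.22). LOC4329723, to which the tables give no name, read 311 and 204 against 62.8 and 132 (log2 difference -1.31 ± 0.36, limma adjusted p = 0.0762). CYP71Z6, which acts on ent-isokaurene, the product of KSL6, read 92.5 and 54.3 against 80.3 and 60.5 (log2 difference -0.02 ± 0.25). CYP76M6, a P450 of oryzalexin synthesis, had a log2 difference of -0.28 ± 0.14 on its brighter probe set and -0.03 ± 0.15 on the other. CYP76M5 read between 12.9 and 42.7 and was not tested.

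The genes of the chromosome 2 run were thus not alike across arrays. KSL7, CPS2, CYP76M8, CYP71Z7 and LOC4329723 were highest on ZH11 replicate 1 and lowest on ila1 replicate 1, and KSL5, which is adjacent to CPS2, was not. Of the 6 tested probe sets of this run that read no synthase, 0 passed the threshold (10.4% of all tested probe sets passed as lower) and 3 had both ila1 arrays below both ZH11 arrays, near the 40.6% of all tested probe sets. KSL10 lies on chromosome 12 with no other synthase or oxidation-step gene within 10 places, and likewise was highest on ZH11 replicate 1 and lowest on ila1 replicate 1.

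**Figure D4:**
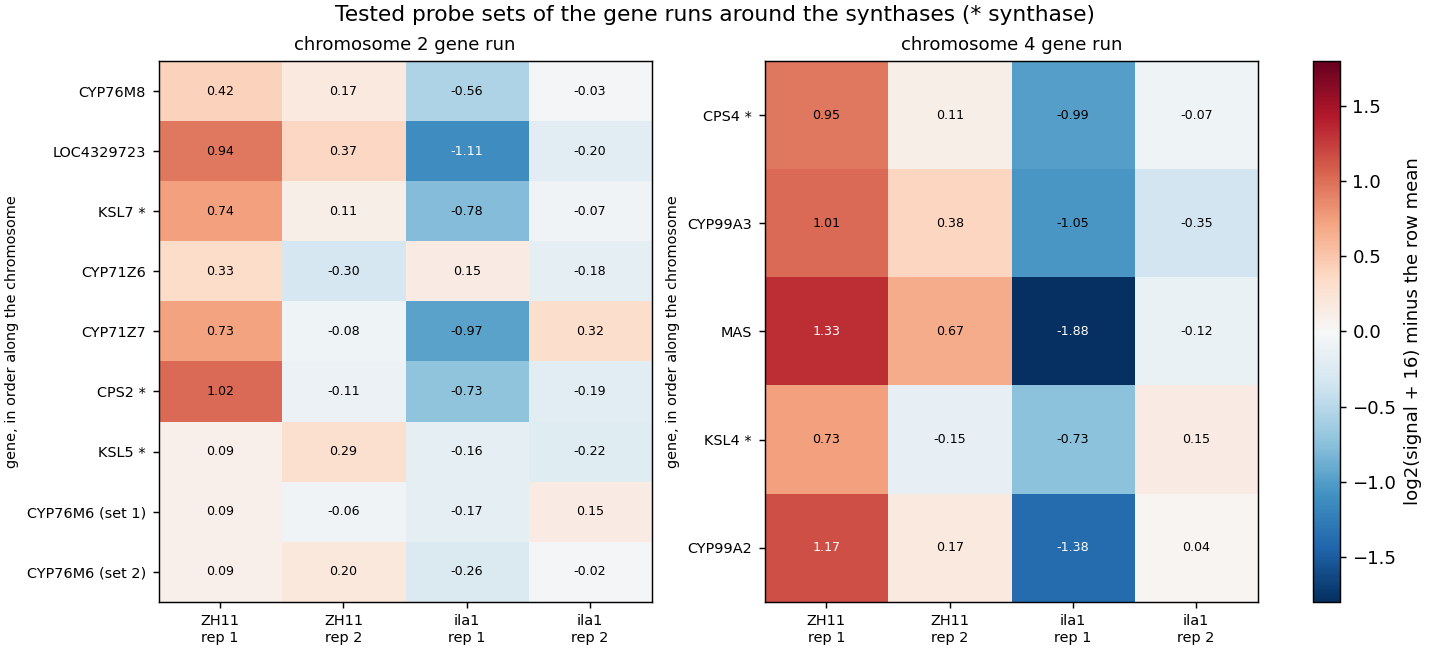
Log2(signal + 16) minus the mean of the 4 arrays (colour and printed value) for the tested probe sets of the gene runs on chromosomes 2 and 4 (rows, in gene order, synthases starred) on the 4 arrays (columns). All 5 rows of chromosome 4 are red on ZH11 replicate 1 and blue on ila1 replicate 1, while KSL5, CYP71Z6 and CYP76M6 on chromosome 2 stay pale throughout.

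Of the list of 28 symbols for oxidation steps, 11 genes were found and 10 were tested. Of these 10 genes 0 passed the threshold in either direction, against 12.6% lower among all 15645 genes with a tested probe set. An unadjusted limma p under 0.05, in either direction, was found for 3 of the 10 and for 5842 of the 15645. The list had a median log2 difference of -0.62, beside -0.02 for all those genes. Both ila1 arrays lay below both ZH11 arrays for 5 of the 10 (35.6% of all genes), and 6 of the 10 had ZH11 replicate 1 highest and ila1 replicate 1 lowest (9.29% of all genes). Of 11 tested probe sets of the list, 5 were among the 62 with wide gaps in both genotypes: CYP99A2, CYP99A3, MAS, CYP71Z7 and CYP701A8. CYP701A8, a P450 that oxidises phytoalexin precursors and is related to the ent-kaurene oxidase of gibberellin synthesis, read 671 and 376 in ZH11 and 156 and 383 in ila1 (log2 difference -0.99 ± 0.48). Its relative CYP701A9 read 91.8, 43.1, 46.4 and 33.9 in the same array order (log2 difference -0.52 ± 0.31). The gene that carries the name CYP76M7 in this annotation lies on chromosome 6, outside the chromosome 2 run. It was matched by name alone, so its identity is not certain. It read 607 and 531 in ZH11 and 557 and 685 in ila1 (log2 difference 0.12 ± 0.16).

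The genes whose pattern over the 4 arrays was most like that of a synthase were sought among 2630 tested probe sets of named genes, for the 2 synthases with the highest mean signal. Likeness was the root mean square difference of log2 values, each centred on its own mean over the 4 arrays. For CPS4 the nearest were CYP701A8 (0.113), EGY3 (0.124) and CYP99A3 (0.198). For KSL10 they were BGLU30 (0.133), a beta-glucosidase family member, EGY3 (0.175) and CYP71Z7 (0.210). EGY3, named for a family of plastid membrane proteases, read 263 and 137 in ZH11 and 71.0 and 116 in ila1. With 4 arrays many profiles can be alike, and the distances are given as a description.

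The gibberellin branch uses the same GGPP through its own enzymes. CPS1, the copalyl diphosphate synthase of gibberellin synthesis, read 1184 and 1444 in ZH11 and 407 and 715 in ila1 (log2 difference -1.25 ± 0.29, limma adjusted p = 0.0515). Its genotypes did not overlap, and unlike CPS2 and CPS4 it was highest on ZH11 replicate 2. CPS1 passed the threshold with no filter on low values (limma adjusted p = 0.0467) and with a pseudocount of 64 (limma adjusted p = 0.0498). It also passed with the replicate numbers as a block (limma adjusted p = 0.0241). Hybridization controls as the scale, median centring and quantile normalization did not make it pass (limma adjusted p = 0.0608, 0.0556 and 0.0761). Nor did a fit with no variance trend or a pseudocount of 1 (limma adjusted p = 0.0530 and 0.0523). The log2 difference was -0.86 without ila1 replicate 1 and -1.65 without ila1 replicate 2. It was -1.39 without ZH11 replicate 1 and -1.11 without ZH11 replicate 2. KS1, the ent-kaurene synthase, read 393 and 424 against 341 and 303 (log2 difference -0.33 ± 0.13, limma adjusted p = 0.152), on a probe set whose type can read several related transcripts.

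KO2, the ent-kaurene oxidase of the gibberellin branch, was read by a pair of probe sets of a type that can also read related transcripts. The dimmer, at 369 and 362 in ZH11 and 181 and 224 in ila1, fell by 0.81 on the log2 scale (SE 0.15, limma adjusted p = 0.0300). That call was lost with hybridization controls as the scale (limma adjusted p = 0.0569). It was also lost without either ZH11 array, as were nearly all calls over all tested probe sets. The brighter read 1009 and 1178 against 461 and 747 (log2 difference -0.87 ± 0.25, limma adjusted p = 0.0823). KAO, which makes the first gibberellin from the ent-kaurene product, read 217 and 271 against 123 and 304 and overlapped between genotypes (log2 difference -0.29 ± 0.42). Its log2 difference was 0.31 when ila1 replicate 1 was left out and -0.90 when the other ila1 array was. Taking 1 probe set per gene, the one with the highest mean signal, 0 of 5 genes of this list passed (2 at an unadjusted p under 0.05), at a median log2 difference of -0.87. Over all 15645 genes 12.6% passed as lower, 5842 had an unadjusted p under 0.05 in either direction, and the median was -0.02. The 5 include CYP701A8, which shares the older name KO1. Without it the median of the other 4 was -0.60.

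Upstream, the plastid (MEP) pathway supplies the precursors of GGPP, starting with 1-deoxy-xylulose phosphate synthase. Of 9 tested genes matched to this list 1 fell and 0 rose, at a median log2 difference of -0.38. That is 11.1% lower, near the 12.6% of all genes. An unadjusted limma p under 0.05, in either direction, was found for 4 of the 9 and for 5842 of the 15645 genes with a tested probe set. The gene that fell, 1 of a pair that carry the name DXPS, read 2800 and 3477 in ZH11 and 211 and 428 in ila1 (log2 difference -3.30 ± 0.34, limma adjusted p = 0.00763). The call was lost without ZH11 replicate 1 (log2 difference -3.46) and without ZH11 replicate 2 (-3.15), as were nearly all calls over all tested probe sets. The other gene named DXPS had a log2 difference of -1.25 ± 0.30 on its brighter probe set (limma adjusted p = 0.0582), where the genotypes did not overlap. On its dimmer probe set the genotypes overlapped (log2 difference -0.43 ± 0.39). Of the 9 genes, 2 share a symbol with another protein, a molybdenum cofactor sulfurase and an acireductone dioxygenase, and neither passed. Without them 1 of 7 fell. The only other terpene synthase that could be tested was the linalool synthase LIS, at 473 and 831 against 210 and 345 (log2 difference -1.17 ± 0.35, limma adjusted p = 0.0901).

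Genes that regulate phytoalexin synthesis, or act in the chitin response that induces it, were followed as a list of 13 symbols. Of these, TGAP1, DPF, WRKY45, WRKY53, MYC2, MKK4 and NOMT gave no gene to test, so the list covers only part of the regulators. Of 8 tested genes 4 fell and 0 rose, beside 12.6% lower among all 15645 genes with a tested probe set, at a median log2 difference of -0.62, or 4 of 7 at -0.90 without a gene that shares the symbol CERK1 with the receptor kinase. WRKY76, a transcription factor known as a repressor of phytoalexin genes, fell from 4955 and 4771 to 374 and 714 in signal (log2 difference -3.19 ± 0.31, limma adjusted p = 0.00646). WRKY62, a related factor, fell from 459 and 510 to 87.3 and 89.5 (log2 difference -2.26 ± 0.13, limma adjusted p = 0.00269). A gene named MPK3 or MPK5, a MAP kinase of the defence response, fell from 7005 and 6904 to 2845 and 2608 (log2 difference -1.35 ± 0.09, limma adjusted p = 0.00314). A second gene that carries the name MPK3 read 2128 and 2137 in ZH11 and 1996 and 2178 in ila1 (log2 difference -0.03 ± 0.10, limma adjusted p = 0.837). CERK1, a receptor-like kinase of chitin perception, fell from 1103 and 1250 to 622 and 618 (log2 difference -0.90 ± 0.12, limma adjusted p = 0.0143). All 4 calls were lost when either ZH11 array was left out, as were nearly all calls over all tested probe sets. The log2 differences of the 4 genes stayed between -0.81 and -3.22. The ZH11 arrays were close together for these 4 genes, unlike for CPS2, CPS4, KSL4, KSL7 and KSL10. Passing the threshold favours genes with close arrays, so no conclusion is drawn from this contrast. The ila1 arrays of WRKY76 were apart, at 374 and 714.

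**Figure D5:**
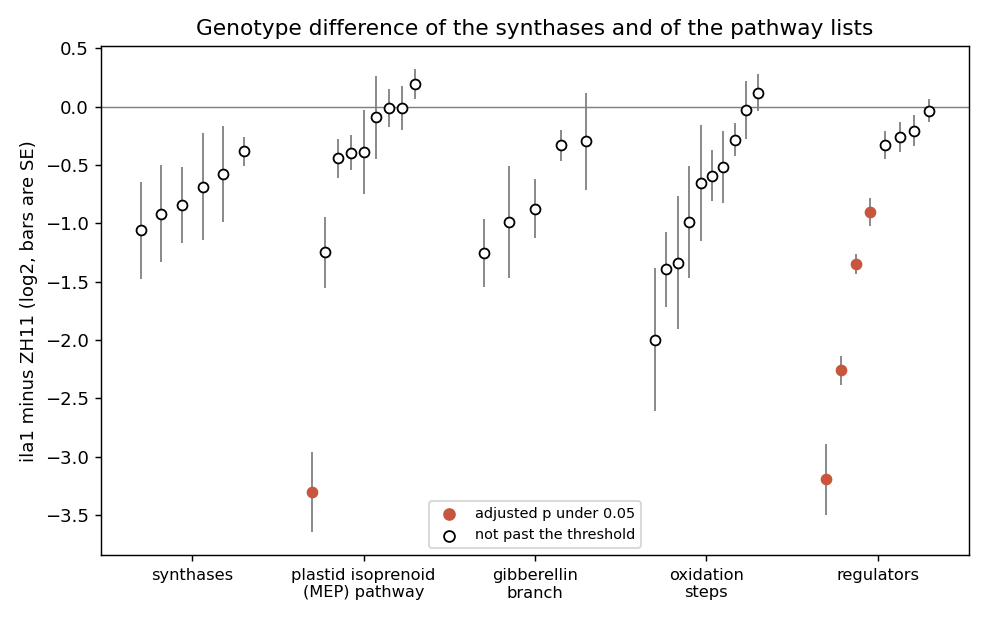
Log2 difference of ila1 minus ZH11 (y axis, bars are SE from limma) for the 6 tested synthases and for the genes of 4 pathway lists (x axis, 1 probe set per gene), with red points for an adjusted p under 0.05 and open points for the rest. The synthases lie between -1.06 and -0.38 with no red point, and the red points are 1 gene of the plastid isoprenoid (MEP) list and 4 regulators.

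The direction of the synthase differences held under the other scalings of the arrays. The median log2 difference of the 6 genes was -0.53 with hybridization controls as the scale, where that of all tested probe sets moved from -0.07 to 0.15. Median centring gave -0.70 beside -0.01, and quantile normalization -0.68 beside 0.03. KSL5, the smallest difference, read -0.16 with hybridization controls as the scale.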

How the data were processed

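The authors deposited a linear intensity for each of 57381 probe sets on 4 arrays. RNA was extracted with TRIzol and labelled as biotinylated cRNA, per the labels' protocols. The software and scaling used for the intensities were not stated in any label or header read here. After 123 control probe sets were removed, 16 was added and log2 taken, and the dimmest 40% by mean signal (up to 40.0) were not tested, leaving 34354. The genotype difference was fitted with limma (version 3.58.1; R 4.3.3), using lmFit and eBayes with a trend, two-sided, with Benjamini-Hochberg adjustment over all tested probe sets, a threshold of 0.05, and 2 residual and 2.87 prior degrees of freedom. The fit was checked on simulated data. Log2 folds understate changes of low signals. The labels call the replicates biological but do not state separate plants, so p-values cover only the spread between these samples. Plant and technical parts of that spread cannot be told apart.

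Gene names came from the platform annotation (22436 probe sets paired with 1 gene) and the RefSeq gene table. The naming rule took all synthases, list members that passed, the gibberellin genes and the 3 most alike genes. Since most gene symbols are locus numbers, synonyms counted as names. The other oxidation genes, LIS and the neighbour runs (synthase and oxidation genes at most 10 places apart) were added after values were seen. The synthases and lists were chosen with earlier results of these data known. Promoter and protein sequences were not analysed here. Alternatives were 3 other scalings, pseudocounts of 1 and 64, no filter, no variance trend, a replicate block and each array left out. Plots used matplotlib 3.10.9 in Python 3.11.15.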

Additional observations from a re-analysis of the deposited data

How the results depend on the processing

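The 6 synthases stayed below 0 in all 12 alternatives, and the count past the threshold was 0 in each except without ila1 replicate 2. With 1 array left out it ranged from 0 to 5, beside 34 to 14835 calls over the whole table (5223 with all arrays). In the same fits the genes called lower ranged from 0 to 6 in the plastid isoprenoid list (called higher, 0 to 1), 0 to 4 in the gibberellin list, 0 to 7 among the oxidation steps, 0 to 1 among other terpene synthases and 0 to 5 among the regulators. With no filter on low values 1 gibberellin gene (CPS1) and 1 oxidation gene (CYP99A3) passed as lower, and with a pseudocount of 64 1 gibberellin gene (CPS1) did. The replicate numbers of the titles are not said to mark shared plants or days, and same-numbered deviations correlated at 0.102 over 34354 tested probe sets, with only 2 pairs. With the replicate block 4800 probe sets passed, with 2 gibberellin genes (CPS1, limma adjusted p = 0.0241, and KO2) and 1 other terpene synthase (LIS) lower and 0 synthases. Some differences changed sign between fits. CYP76M6, on its dimmer probe set, read 0.19 with arrays scaled to hybridization controls, 0.042 after median centring and 0.049 after quantile normalization, and from -0.19 to 0.14 with 1 array left out. CYP71Z6 read 0.19, 0.043 and 0.045 in the same 3 scalings, and from -0.34 to 0.29 with 1 array left out. In the latter fits CYP76M7 ranged from -0.025 to 0.26 and KAO from -0.90 to 0.31. The cause of these changes was not tested.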

Other observations

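Of the 62 probe sets with gaps at least as wide as the limits set by the 5 synthases, 49 were paired with 1 gene. These 49 hold 17 genes with a name, and the rest have only locus numbers. By the definition of these limits, ZH11 replicate 1 was above replicate 2 and ila1 replicate 2 above replicate 1 in all 62. The synthases and lists were matched by name, so their members count as named genes, and their share over all named genes was not computed. Of the 17, 10 are synthases or members of the pathway lists, and the 5 synthases are there by construction. The other 7, named here because they are few and after their values were seen, are CLPB1, HSFB2A, HSFA2D, DJC27, EGY3, RAB21 and APRL1. CLPB1, the heat-induced chaperone also called hsp101, read 1071 and 74.0 in ZH11 and 41.4 and 82.1 in ila1. The heat stress factor HSFB2A read 1679 and 668 against 61.6 and 222 on its brighter probe set (log2 difference -2.99, limma adjusted p = 0.0494) and missed the threshold on the other (limma adjusted p = 0.0508). HSFA2D, a heat stress factor symbol that the table also joins to an acireductone dioxygenase, read 1124 and 390 against 69.4 and 378, and DJC27, a chaperone of the DnaJ family, 478 and 248 against 151 and 436. RAB21, a dehydrin induced by water stress, read 370 and 191 in ZH11 but 282 and 2790 in ila1, so its highest array was ila1 replicate 2. APRL1 was likewise highest on ila1 replicate 2, at 607, against 385 on ila1 replicate 1 and 433 and 253 in ZH11.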
